A study of Mus musculus with 12 samples.

Results

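Testes with tubules at stages VIII to XI of the seminiferous cycle were compared with testes at stages XII to IV. The comparison pooled 4 arrays labelled VIII-IX or IX-XI (2 each, called VIII-XI here) against 4 arrays labelled XII-I or II-IV (2 each, called XII-IV), which is 8 of the 12 arrays of the series. The other 4 arrays, labelled IV-VI and VII (2 each, IV-VII), took no part in the main test and served to place a gene in the rest of the cycle. They also entered the fit of stage group means to all 12 arrays, used within periods and as an alternative setting. All groups came from male mice of a mixed 129/C57BL6 background and shared the same treatment. As pups they received WIN 18,446, a compound that blocks retinoic acid synthesis, at 100 ug per gram daily for 7 days (2 to 8 days postpartum), then 200 ug of retinoic acid at 9 days postpartum. The testes were collected 43 to 49 days later and staged by morphology. No untreated testis was among the samples, so the treatment is common to both sides. Whether 2 samples of one group were 2 animals is not stated, so the p-values cover only the variation among these arrays. In the main test this variation includes any difference between the 2 stage groups of a period. Part or all of the variation within a stage group may be technical.

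The seminiferous cycle is the fixed succession of germ cell associations at one place of a tubule. After spermiation at stage VIII, the mature sperm leave, and the spermatids that remain lengthen through stages IX to XI as the one spermatid generation of the tubule. Preleptotene spermatocytes enter meiosis at VII and VIII under retinoic acid and pass through leptotene in IX to XI. The meiotic divisions of older spermatocytes take place at stage XII. From stage I, new round spermatids share the tubule with the older, elongated generation, until the older one is released at VIII. The early part of VIII-IX therefore still holds round spermatids and sperm about to be released. Sertoli cells, the somatic cells that carry the germ cells, renew the blood-testis barrier around VIII and take up the residual bodies that spermatids shed.

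Values are log2 intensities of 19938 genes, each read by its brightest probe set, and a difference is VIII-XI minus XII-IV. A probe set's level has no common scale with that of another gene, so levels are compared only within a gene. In whole tissue, fewer cells of a type and less RNA per cell cannot be told apart. The 4 arrays of VIII-XI correlated with each other at 0.987 to 0.995 across genes, and the 4 of XII-IV at 0.972 to 0.998. These are correlations across genes, which do not count as independent. Both first samples of XII-IV stood apart. XII-I sample 1 correlated at 0.988 with its partner and at 0.987 with VIII-IX sample 2, but at 0.972 with II-IV sample 1. II-IV sample 1 correlated at 0.998 with IV-VI sample 2 and at 0.987 with its partner, while both second samples of XII-IV correlated at 0.998. Counts are therefore also given without these 2 first samples, an alternative chosen after seeing the data. The labelled tissue was checked by markers. The germ cell genes Ddx4 and Prm1 averaged 12.33 and 13.27 in VIII-XI, against 12.62 and 13.13 in XII-IV. Among somatic genes, the Sertoli marker Clu averaged 12.11 in VIII-XI and 12.19 in XII-IV, the Leydig marker Cyp17a1 12.20 in VIII-XI and 12.52 in XII-IV, and the muscle actin Acta2 of peritubular cells 11.35 in VIII-XI and 11.40 in XII-IV. The epididymal markers Gpx5 and Adam7 averaged 5.65 and 5.99 in VIII-XI, against 5.64 and 5.95 in XII-IV. None of the 5 somatic and epididymal markers named here passed the test.

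In limma's test across all genes, 3818 of 19938 genes passed an adjusted p of 0.05 (19.1%). Of these, 1706 were higher in VIII-XI (8.56% of all genes) and 2112 were lower (10.6%). A difference of at least 2-fold was seen for 323 higher and 199 lower genes, and of at least 4-fold for 58 higher and 31 lower genes. The median difference was 0.002 over all genes, and the median size among genes past the threshold was 0.50. The 4 arrays of one period lay entirely beyond the 4 of the other for 4412 genes (22.1% of all), including 3421 of those that passed. The number that passed fell to 2334 without II-IV sample 2, to 2274 without XII-I sample 2 and to 2246 without the first IX-XI array. Without both first samples of XII-IV it was 4732, and 3343 of these were among the 3818. Over the settings that left out 1 array the number ran from 2246 to 4480. Counts of list members below for settings with fewer arrays are to be read against the total of the setting. Of 19938 genes, 2195 rose and 2285 fell without XII-I sample 1, and 1937 and 2346 without II-IV sample 1. The numbers were 1002 and 1272 without XII-I sample 2, and 1009 and 1325 without II-IV sample 2. They were 1250 and 1673 without VIII-IX sample 1, and 969 and 1277 without IX-XI sample 1. They were 1499 and 1729 without VIII-IX sample 2, and 1296 and 1699 without IX-XI sample 2. Without all of IX-XI 350 rose and 546 fell, and without all of VIII-IX 815 and 1094. More genes were lower than higher in VIII-XI with all 8 arrays, but not without both first samples of XII-IV (2404 higher, 2328 lower), without XII-I (1547 higher, 1474 lower) or with arrays centred on their 75th percentile (1820 higher, 1805 lower).

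**Figure D1:**
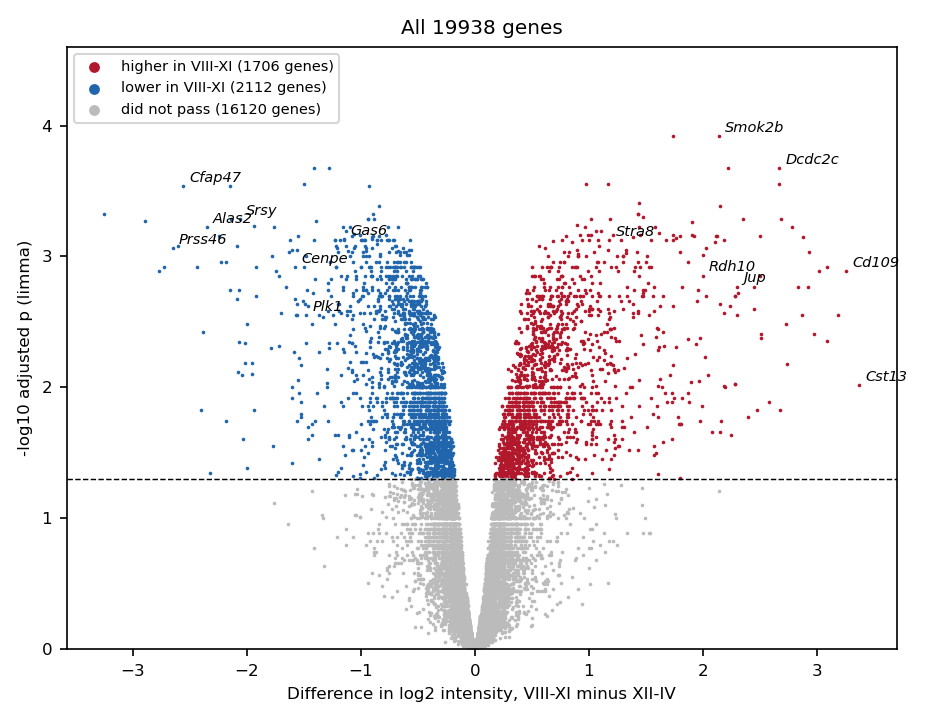
Difference in log2 intensity (VIII-XI minus XII-IV, x axis) against -log10 of the limma adjusted p (y axis) for 19938 genes, each a point. The 1706 higher genes are red, the 2112 lower genes blue, and the dashed line marks the threshold of 0.05. The higher side extends to 3.37 (Cst13).

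Among the genes that rose most in VIII-XI were surface, enzyme and kinase genes. Cd109, a surface protein that restrains TGF-beta signalling, read 10.96 and 10.23 in VIII-IX and 10.81 and 11.01 in IX-XI, against 7.60 and 6.80 in XII-I and 8.68 and 6.89 in II-IV. Its difference was 3.26 ± 0.39 (SE; adjusted p = 0.0013), or 9.57-fold. All VIII-XI arrays lay above 10, and the highest XII-IV array was II-IV sample 1. Cst13, a cystatin family gene, read 11.86 and 11.70 in VIII-IX and 11.56 and 11.31 in IX-XI, against 10.44 and 7.00 in XII-I and 8.43 and 7.08 in II-IV. The XII-IV arrays of Cst13 spread widely, with XII-I sample 1 nearest VIII-XI, and its difference of 3.37 ± 0.67 (SE; adjusted p = 0.0096) was the largest increase of any gene. Mgat4f, a member of a glycosyltransferase family that branches N-glycans, read 11.62 and 11.22 in VIII-IX and 11.43 and 11.30 in IX-XI, against 9.42 and 7.61 in XII-I and 8.48 and 7.71 in II-IV, a difference of 3.09 ± 0.36 (SE; adjusted p = 0.0012). Cd46, a complement regulator that in mice sits on the acrosomal membrane, read 10.12 and 9.41 in VIII-IX and 9.95 and 9.84 in IX-XI, against 7.05 and 6.54 in XII-I and 7.72 and 6.49 in II-IV, a difference of 2.88 ± 0.27 (SE; adjusted p = 0.00071). The groups overlapped in none of these 4 genes.

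The other genes with the largest increases lay between 2.68 and 3.19. They were Faiml, Fam71b, Dyrk4, Spata31d1c, Slc36a3, Plbd1, Trim42, Fam71a, Tmco5b, Lrrd1 and Fhdc1. Dyrk4 is a protein kinase of the DYRK family, Slc36a3 belongs to a family of proton-coupled amino acid transporters, and Fhdc1 is a formin. Each passed in every setting that left out 1 array, except Fhdc1, which missed the threshold without XII-I sample 2 (limma adjusted p = 0.05 after rounding). Ranked by the gap between the nearest arrays of the 2 periods, the widest were those of Dcdc2c and Smok2a, a sperm motility kinase gene that differed by 2.67. Dcdc2c, a doublecortin family gene, read 11.68 and 11.53 in VIII-IX and 11.63 and 11.29 in IX-XI, against 9.11 and 8.73 in XII-I and 9.11 and 8.50 in II-IV, a difference of 2.67 ± 0.15 (SE; adjusted p = 0.00021). Smok2b, a relative of Smok2a, read 9.64 and 9.39 in VIII-IX and 9.63 and 9.35 in IX-XI, against 7.61 and 7.30 in XII-I and 7.29 and 7.24 in II-IV, a difference of 2.14 ± 0.10 (SE; adjusted p = 0.00012). Its VIII-XI arrays spanned a narrow range well above all 4 XII-IV arrays. Smok2a and Smok2b are near copies, as are Spata31 genes, and their probe sets may read several copies.

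The genes that fell most in VIII-XI included the flagellar genes Cfap47 and Iqca. Cfap47, an X-linked cilia- and flagella-associated protein, read 7.20 and 7.02 in VIII-IX and 7.08 and 7.55 in IX-XI, against 9.32 and 10.06 in XII-I and 9.73 and 9.98 in II-IV, a difference of -2.56 ± 0.18 (SE; adjusted p = 0.00029). The lowest XII-IV array was XII-I sample 1, still 1.77 above the highest VIII-XI array. Iqca, an IQ motif protein of the regulatory complex that links dyneins along the axoneme, read 7.43 and 7.87 in VIII-IX and 7.72 and 8.11 in IX-XI, against 9.54 and 10.76 in XII-I and 10.63 and 10.58 in II-IV, a difference of -2.60 ± 0.26 (SE; adjusted p = 0.00083). Prss46, a serine protease gene, read 9.07 and 8.86 in VIII-IX and 8.80 and 9.65 in IX-XI, against 10.97 and 11.87 in XII-I and 12.17 and 11.96 in II-IV, a difference of -2.65 ± 0.27 (SE; adjusted p = 0.00086). Tpte, a phosphatase with transmembrane segments made in testis, read 7.26 and 7.13 in VIII-IX and 7.34 and 8.03 in IX-XI, against 9.23 and 10.40 in XII-I and 10.64 and 10.42 in II-IV, a difference of -2.73 ± 0.32 (SE; adjusted p = 0.0012). In all 4 genes the periods did not overlap, and XII-I sample 1 was the lowest array of XII-IV.

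Alas2 stood out in another way, since it makes the first enzyme of heme synthesis in red cells. It read 7.36 and 7.93 in VIII-IX and 7.61 and 7.75 in IX-XI, against 9.42 and 10.27 in XII-I and 10.05 and 10.33 in II-IV, a difference of -2.35 ± 0.20 (SE; adjusted p = 0.0006). The other measured genes of the red cell list were nearly level. Slc4a1, the anion exchanger, averaged 7.64 in VIII-XI and 7.68 in XII-IV, and Epb42, a membrane skeleton protein, 6.90 in VIII-XI and 6.93 in XII-IV. Rhag differed by -0.01 and Tmcc2 by -0.22, and none of these 4 passed the test. Outside the compared arrays Alas2 averaged 9.22 in IV-VI and 8.06 in VII.

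The remaining genes of the same rank lay between -2.23 and -2.02. They were Ssxb2, Nutm2, AF366264, Ssxb3, Scp2, Zdhhc11, Fam228b, Srsy, Nutm1 and Cntn6. Srsy, a Y-linked gene, read 10.28 and 10.09 in VIII-IX and 10.08 and 10.60 in IX-XI, against 12.17 and 12.59 in XII-I and 11.98 and 12.56 in II-IV, a difference of -2.06 ± 0.17 (SE; adjusted p = 0.00052). Nutm1, a partner of histone acetyltransferases in spermatids, read 8.18 and 7.77 in VIII-IX and 8.35 and 9.28 in IX-XI, against 9.51 and 10.60 in XII-I and 10.90 and 10.66 in II-IV, a difference of -2.02 ± 0.37 (SE; adjusted p = 0.0065). In Nutm1, IX-XI sample 2 and XII-I sample 1 came nearest to each other, without overlap. Ssxb2, Ssxb3 and Srsy belong to families of near copies, so their probe sets may read several genes.

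**Figure D2:**
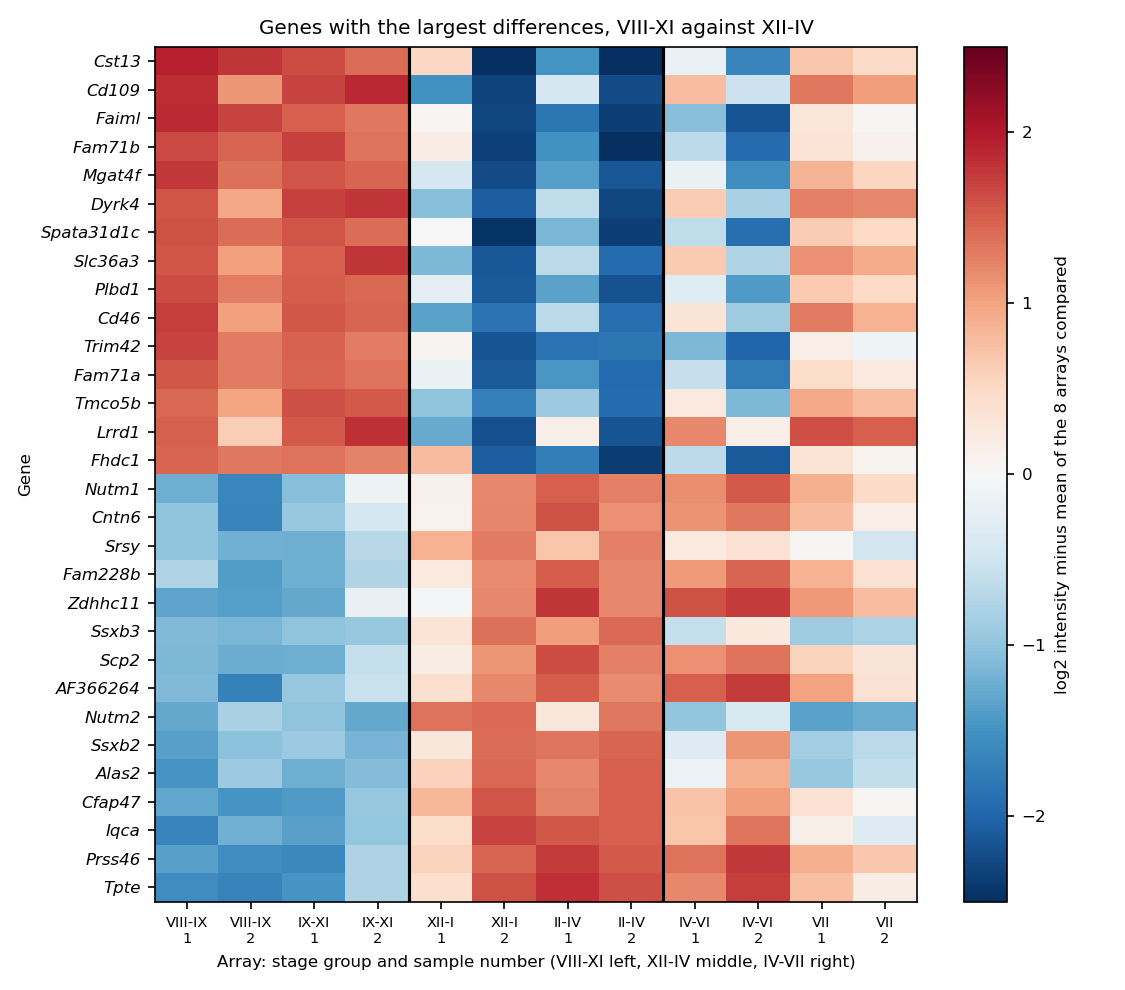
Log2 intensity minus the mean of the 8 compared arrays (colour) for the 15 genes with the largest increase and the 15 with the largest decrease (rows) on the 12 arrays (columns, VIII-XI left, XII-IV middle, IV-VII right). XII-I sample 1 and II-IV sample 1 are paler than their partners in most rows, as in Trim42, where XII-I sample 1 read 9.45 and the other XII-IV arrays 7.22 to 7.56.

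Genes of the meiotic divisions and of M phase were mostly lower in VIII-XI. Of 59 measured members, 21 fell and 2 rose, and the median difference was -0.273, against 10.6% lower, 8.56% higher and a median of 0.002 over all genes. Without both first samples of XII-IV, 24 fell and 3 rose. The count that fell ran from 16 (without IX-XI sample 1) to 25 over the settings that left out 1 array. It was 9 without the IX-XI group and 17 without the VIII-IX group. Cenpe, the kinesin that carries chromosomes to the spindle equator, read 8.95 and 9.71 in VIII-IX and 9.12 and 9.07 in IX-XI, against 10.91 and 11.03 in XII-I and 10.40 and 10.82 in II-IV, a difference of -1.58 ± 0.19 (SE; adjusted p = 0.0012). Plk1, the polo kinase of mitotic and meiotic entry, read 10.64 and 11.36 in VIII-IX and 10.72 and 10.21 in IX-XI, against 12.31 and 12.34 in XII-I and 11.88 and 12.30 in II-IV, a difference of -1.48 ± 0.22 (SE; adjusted p = 0.0028). VIII-IX sample 2 was the highest VIII-XI array for both, and II-IV sample 1 the lowest XII-IV array.

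Ccna1, the male germ line cyclin needed for the first meiotic division, read 11.60 and 12.15 in VIII-IX and 11.67 and 11.08 in IX-XI, against 12.77 and 12.72 in XII-I and 12.20 and 12.76 in II-IV. Its difference was -0.99 ± 0.22 (SE; adjusted p = 0.014), and VIII-IX sample 2 lay just below the lowest XII-IV array. Cdc25a, a phosphatase that activates cyclin-dependent kinases, read 10.67 and 10.70 in VIII-IX and 10.59 and 10.72 in IX-XI, against 11.55 and 11.68 in XII-I and 11.35 and 11.66 in II-IV, a difference of -0.89 ± 0.08 (SE; adjusted p = 0.0007) with little spread in either period. Incenp, which anchors Aurora B on chromosomes, differed by -1.11 ± 0.21 (SE; adjusted p = 0.0071), and Kif23, a kinesin of cytokinesis, by -1.07 ± 0.17 (SE; adjusted p = 0.0036). Cdc25c differed by -0.85. Genes outside the naming rule were chosen after their values were seen, here and below. Among them Ccnb2, a B-type cyclin, averaged 12.33 in VIII-XI and 12.87 in XII-IV (SDs 0.06 and 0.07, n = 4 each). Cdk1, the kinase these cyclins activate, averaged 11.17 in VIII-XI and 11.44 in XII-IV and did not pass. Mastl ran the other way. It encodes the Greatwall kinase, which restrains a phosphatase that opposes CDK1, and it read 10.20 and 9.67 in VIII-IX and 9.95 and 9.90 in IX-XI, against 8.66 and 7.66 in XII-I and 8.90 and 7.91 in II-IV, a difference of 1.65 ± 0.26 (SE; adjusted p = 0.0038). The other member that rose was Mad1l1, a spindle checkpoint gene (0.46), which with 1 array left out passed only without VIII-IX sample 1 or XII-I sample 1. Without XII-I sample 1, 4 members rose.

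The promoter windows of M phase members are shown for Plk1 and Kif23, because the letters TTTGAA, the cell cycle genes homology region (CHR), mark many promoters of such genes. Windows are RefSeq's, on GRCm38.p6, from 250 bases before to 50 after the start, and the match is in capitals. The Plk1 window lies at chr7:122159185-122159484 (+ strand), with the match from position 31 after the start. The Kif23 window lies at chr9:61946750-61947049 (- strand), with the match from position 3.
Plk1: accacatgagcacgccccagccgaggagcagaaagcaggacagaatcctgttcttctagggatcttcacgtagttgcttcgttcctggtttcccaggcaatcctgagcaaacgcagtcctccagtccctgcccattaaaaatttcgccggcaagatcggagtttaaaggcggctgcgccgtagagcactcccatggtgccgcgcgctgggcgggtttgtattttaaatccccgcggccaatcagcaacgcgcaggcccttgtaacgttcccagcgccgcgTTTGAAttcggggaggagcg
Kif23: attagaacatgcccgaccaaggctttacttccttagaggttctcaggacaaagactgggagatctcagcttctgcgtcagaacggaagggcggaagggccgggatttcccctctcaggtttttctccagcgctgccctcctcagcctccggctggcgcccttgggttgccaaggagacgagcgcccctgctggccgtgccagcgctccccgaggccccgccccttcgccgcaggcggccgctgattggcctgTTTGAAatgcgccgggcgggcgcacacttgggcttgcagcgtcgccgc
TTTGAA stood on either strand in 26 of the 49 members of the list with a window (53.1%), against 2698 of 15614 measured genes with one (17.3%). Among all genes that fell it stood in 15.6%, and among all that rose in 15.4%, both below that share. Among genes at least 2-fold lower it stood in 24.7%, and among those at least 2-fold higher in 17.1%. Other patterns were also searched and are not shown. A match is a description and not a binding site.

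Genes of meiotic entry and early prophase that passed were mostly higher. Of 42 measured members, 8 rose and 2 fell, with a median difference of 0.237, against 8.56% and 10.6% of all genes. Stra8, the retinoic acid target that starts meiosis, read 8.47 and 8.31 in VIII-IX and 8.47 and 8.34 in IX-XI, against 7.53 and 7.19 in XII-I and 6.95 and 7.18 in II-IV, a difference of 1.18 ± 0.11 (SE; adjusted p = 0.00075). Prdm9, which sets the sites of recombination, read 8.65 and 8.47 in VIII-IX and 8.41 and 8.19 in IX-XI, against 7.74 and 7.18 in XII-I and 7.53 and 7.17 in II-IV, a difference of 1.03 ± 0.15 (SE; adjusted p = 0.0025). Rad21l, a meiotic cohesin subunit, read 8.49 and 8.10 in VIII-IX and 8.07 and 7.66 in IX-XI, against 7.39 and 6.93 in XII-I and 6.67 and 7.06 in II-IV, a difference of 1.07 ± 0.19 (SE; adjusted p = 0.0062). The periods did not overlap in these 3 genes, and XII-I sample 1 was the highest XII-IV array in each. Meiob, a single-strand DNA binding protein of recombination, differed by -1.01 ± 0.21 (SE; adjusted p = 0.012) and averaged 8.32 in VIII-IX and 7.60 in IX-XI, against 8.88 in XII-I and 9.07 in II-IV. Sycp3, a core protein of the synaptonemal complex, averaged 10.87 in VIII-XI and 10.98 in XII-IV and did not pass. The count of members that rose was 16 without II-IV sample 1, 13 without XII-I sample 1 and 16 without both, and it was 5 without any of 4 others, namely II-IV sample 2, XII-I sample 2 and the first arrays of VIII-IX and IX-XI. Without XII-I sample 1, 4 members fell. The count that rose was 3 without the IX-XI group and 3 without the VIII-IX group. Of 40 genes of pachytene and diplotene spermatocytes, 6 rose and 3 fell (22.5% passed, near the 19.1% of all genes). There 2 rose without II-IV sample 2, IX-XI sample 1 or XII-I sample 2, 3 rose without VIII-IX sample 1, and 1 fell without XII-I sample 2.

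DNA replication genes that passed were mostly higher. Of 56 measured members, 11 rose and 3 fell, with a median of 0.098, against 8.56% and 10.6% of all genes. Ccne2, a cyclin of the entry into S phase, read 10.32 and 9.85 in VIII-IX and 10.22 and 10.15 in IX-XI, against 8.97 and 8.61 in XII-I and 9.57 and 8.57 in II-IV, a difference of 1.20 ± 0.21 (SE; adjusted p = 0.0058). Rrm2, a subunit of the enzyme that makes deoxynucleotides, read 9.04 and 9.09 in VIII-IX and 8.91 and 8.84 in IX-XI, against 9.93 and 9.92 in XII-I and 9.47 and 9.85 in II-IV, a difference of -0.82 ± 0.11 (SE; adjusted p = 0.002). Orc1, of the origin recognition complex, differed by 0.73. Most subunits of the replicative helicase did not pass, with Mcm6 at 0.16, Mcm5 at -0.07 and Mcm2 at -0.26, while Mcm7 fell (-0.38). The count that rose was 5 without IX-XI sample 1, 6 without either II-IV sample 2 or XII-I sample 2, 7 without VIII-IX sample 1 and 18 without both first samples of XII-IV. Without II-IV sample 1, 6 members fell. The count that rose was 1 without the IX-XI group and 3 without the VIII-IX group.

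Spermatogonia are few in the adult testis, and their lists were mixed. Among genes of undifferentiated spermatogonia 5 of 26 rose and 4 fell (34.6% passed, against 19.1% of all genes). Only 1 rose without II-IV sample 2, XII-I sample 2 or the first array of either VIII-XI group, 2 without the second array of either VIII-XI group, and 3 without II-IV sample 1. Pou5f1, a pluripotency factor, read 8.81 and 8.03 in VIII-IX and 8.51 and 8.24 in IX-XI, against 6.81 and 6.71 in XII-I and 6.62 and 6.36 in II-IV, a difference of 1.77 ± 0.17 (SE; adjusted p = 0.00072), though its probe set may read related copies. Etv5, a factor of stem cell renewal also made by Sertoli cells, differed by -0.78 ± 0.17 (SE; adjusted p = 0.012). Of 21 genes of differentiating spermatogonia, 3 rose (5 without XII-I sample 1) and 4 fell, so that 33.3% passed. Among them Kitl, which fell, is also in the Sertoli cell list. Stra8, which rose, is also in the meiotic entry and retinoid lists. Sohlh2, a helix-loop-helix factor of differentiation, read 8.56 and 8.46 in VIII-IX and 8.50 and 8.77 in IX-XI, against 9.28 and 9.61 in XII-I and 9.83 and 9.77 in II-IV, a difference of -1.05 ± 0.13 (SE; adjusted p = 0.0013).

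Retinoid genes fell into opposite sets. Retinol enters cells through STRA6 and is oxidised in steps, by RDH10 among others and then by ALDH1A enzymes, to retinoic acid, which binds the RAR and RXR receptors. Of 39 measured members, 5 rose and 9 fell (35.9% passed, against 19.1% of all genes), with a median of -0.032. The members that rose were Rdh10, Stra6, Stra8, Rxra and Rarb. Rdh10, which oxidises retinol to retinal, read 11.39 and 11.14 in VIII-IX and 11.45 and 11.31 in IX-XI, against 10.13 and 9.01 in XII-I and 9.25 and 8.89 in II-IV, a difference of 2.00 ± 0.24 (SE; adjusted p = 0.0014). Stra6, the retinol transporter, read 9.56 and 9.17 in VIII-IX and 9.63 and 9.82 in IX-XI, against 8.46 and 8.38 in XII-I and 8.23 and 8.13 in II-IV, a difference of 1.25 ± 0.14 (SE; adjusted p = 0.001). Rxra, a retinoid X receptor, differed by 1.02 ± 0.19 (SE; adjusted p = 0.0074), and Rarb, a retinoic acid receptor, by 0.59 (adjusted p = 0.0075, limma). The count that rose ranged from 5 to 7 over the settings that left out 1 array.

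On the falling side, Adh7, an alcohol dehydrogenase that acts on retinol, read 7.80 and 8.07 in VIII-IX and 7.89 and 8.35 in IX-XI, against 9.27 and 10.26 in XII-I and 10.16 and 10.10 in II-IV, a difference of -1.92 ± 0.22 (SE; adjusted p = 0.0012). Crabp1, a retinoic acid binding protein, read 9.85 and 10.03 in VIII-IX and 9.93 and 9.84 in IX-XI, against 10.39 and 10.65 in XII-I and 10.79 and 10.71 in II-IV, a difference of -0.72 ± 0.09 (SE; adjusted p = 0.0018). Aldh1a1, a retinal dehydrogenase, averaged 11.62 in VIII-XI and 11.97 in XII-IV and passed, though not without XII-I sample 2, IX-XI sample 2 or either VIII-IX array. Aldh1a2, another of that family, averaged 11.51 in VIII-XI and 11.65 in XII-IV and did not pass, and neither did the receptor Rara (9.11 in VIII-XI, 9.14 in XII-IV) or the degrading enzyme Cyp26b1 (8.77 in VIII-XI, 8.97 in XII-IV). The count that fell rested on single arrays: it was 2 without XII-I sample 2, 3 without either VIII-IX sample, 4 without IX-XI sample 1 or II-IV sample 2, and 5 without the other IX-XI array.

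**Figure D3:**
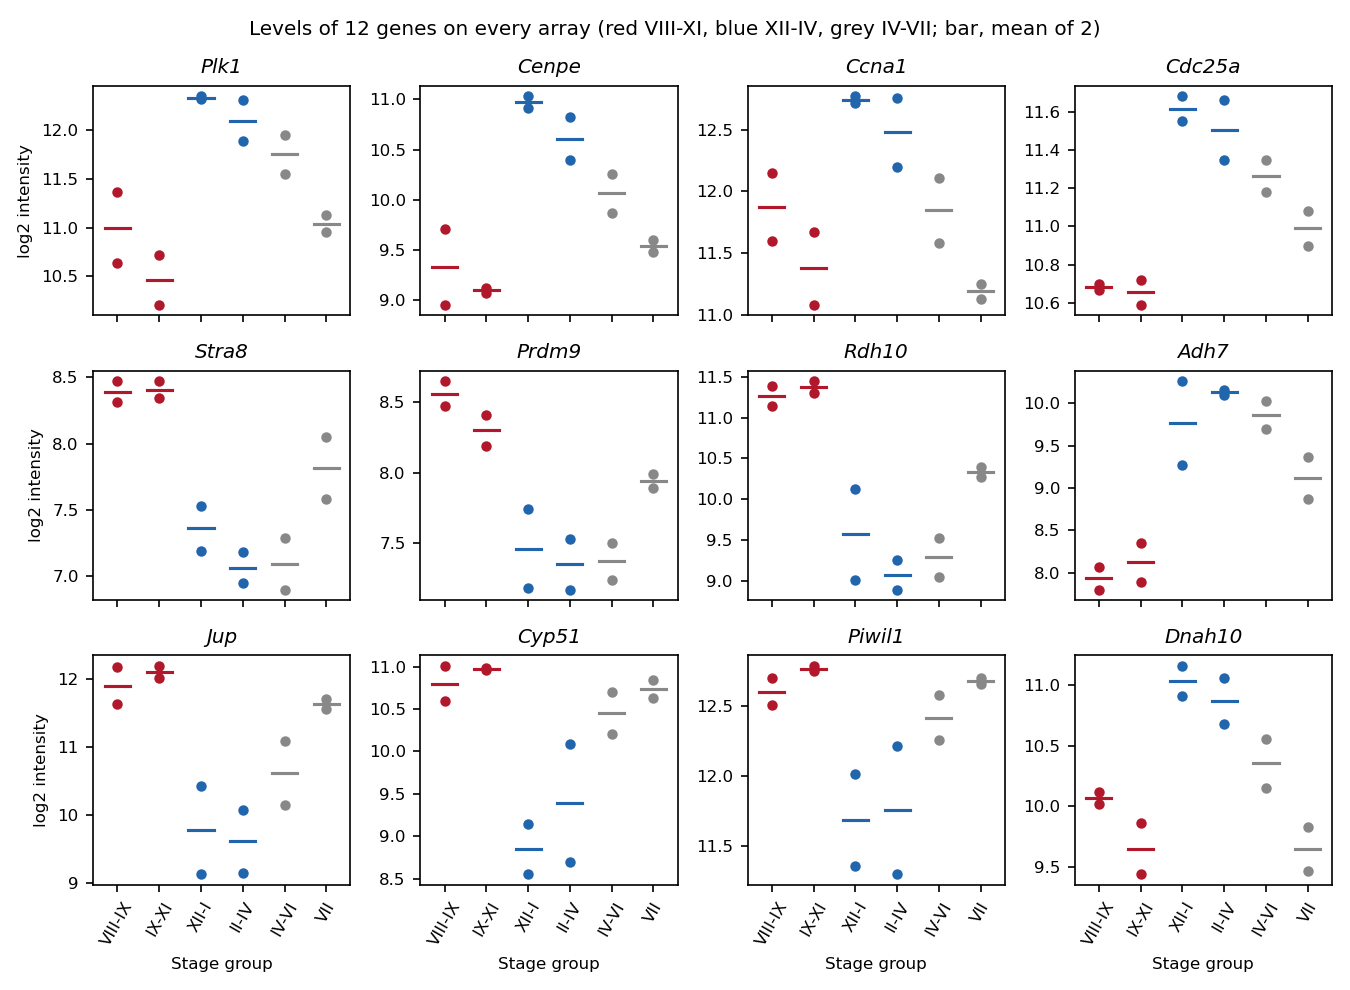
Log2 intensity (y axis) of 12 genes on every array, by stage group along the cycle (x axis), with VIII-XI in red, XII-IV in blue and IV-VII in grey; points are arrays and bars are means of 2. Plk1, Cenpe, Ccna1 and Cdc25a were highest in XII-I, while Stra8, Prdm9, Rdh10 and Jup were highest in VIII-XI.

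Genes of the axoneme, the microtubule core of the tail, were mostly lower in VIII-XI. Of 70 measured members 23 fell and 1 rose, against 10.6% and 8.56% of all genes, and the median was -0.151. Dnah10, a dynein heavy chain of the inner arms, read 10.02 and 10.12 in VIII-IX and 9.86 and 9.44 in IX-XI, against 10.91 and 11.16 in XII-I and 10.68 and 11.06 in II-IV, a difference of -1.09 ± 0.16 (SE; adjusted p = 0.0026). Tekt3, a tektin of the doublet microtubules, read 10.52 and 10.51 in VIII-IX and 10.45 and 10.53 in IX-XI, against 10.97 and 11.08 in XII-I and 11.11 and 11.15 in II-IV, a difference of -0.58 ± 0.06 (SE; adjusted p = 0.00089) that was small beside a narrow spread. Tekt5 was the member that rose, at 13.00 and 12.80 in VIII-IX and 13.00 and 13.02 in IX-XI, against 12.34 and 11.46 in XII-I and 11.80 and 11.29 in II-IV, a difference of 1.23 ± 0.20 (SE; adjusted p = 0.0042). The outer arm chain Dnah5 differed by -0.89 and the intermediate chain Dnaic2 by -1.37, with overlap between the periods in Dnaic2 and a narrow gap in Dnah5. Neither passed without II-IV sample 2, XII-I sample 2 or the first array of either VIII-XI group, and Dnaic2 also not without XII-I sample 1 or IX-XI sample 2 (highest adjusted p 0.064 for Dnah5 and 0.1 for Dnaic2). Without both first samples of XII-IV, 23 fell and 4 rose. Leaving out II-IV sample 1 gave 2 members that rose, and leaving out XII-I sample 1 gave 3. The count that fell was 8 without XII-I sample 2, 10 without IX-XI sample 1 or II-IV sample 2, and 11 without the first VIII-IX array. It was 4 without the IX-XI group and 7 without the VIII-IX group.

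Genes of the manchette and of intraflagellar transport, which carry cargo into the growing tail, gave 13 lower and 4 higher of 49 (34.7% passed). Ift52, a subunit of the transport particle, read 10.51 and 10.67 in VIII-IX and 10.44 and 10.39 in IX-XI, against 10.95 and 11.05 in XII-I and 10.89 and 11.01 in II-IV, a difference of -0.47 ± 0.07 (SE; adjusted p = 0.0036). Kif3b, a motor of that transport, differed by -0.57 ± 0.12 (SE; adjusted p = 0.0097). The members that rose included Sun3 and Spag4, nuclear envelope proteins of the spermatid, with differences of 0.71 and 0.56. The count that fell was 7 without IX-XI sample 1 and 8 without II-IV sample 2 or XII-I sample 2, and 8 rose without II-IV sample 1. Without the IX-XI group 1 fell, and without the VIII-IX group 7 fell. Of 54 genes of centrioles and spindle poles, 10 fell and 6 rose (29.6% passed, against 19.1% of all genes). Without II-IV sample 2, IX-XI sample 1 or XII-I sample 2, 5 fell and 3 rose, and without XII-I sample 1, 8 fell and 10 rose. Haus2, an augmin subunit that branches spindle microtubules, read 9.90 and 9.51 in VIII-IX and 9.78 and 9.76 in IX-XI, against 8.58 and 8.35 in XII-I and 9.05 and 8.63 in II-IV, a difference of 1.09 ± 0.15 (SE; adjusted p = 0.002), and Ofd1, a centriole gene on the X chromosome, differed by -0.60 ± 0.08 (SE; adjusted p = 0.002).

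Regulatory factor X proteins, which act at ciliary genes, bind sites that contain GTTGCCA. Windows of Iqca, Dnah10 and Prss46, 3 genes that fell, are shown with that match in capitals. They lie at chr1:90153387-90153686 (- strand), chr5:124724835-124725134 (+ strand) and chr9:110844256-110844555 (+ strand). The match starts at -100 in Iqca, at 11 in Dnah10 and, read on the opposite strand, at -117 in Prss46.
Iqca: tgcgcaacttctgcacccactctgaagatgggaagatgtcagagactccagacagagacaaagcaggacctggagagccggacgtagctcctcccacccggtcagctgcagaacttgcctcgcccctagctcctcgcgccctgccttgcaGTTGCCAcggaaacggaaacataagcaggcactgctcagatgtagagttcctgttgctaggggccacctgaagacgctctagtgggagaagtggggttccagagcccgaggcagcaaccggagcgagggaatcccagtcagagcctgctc
Dnah10: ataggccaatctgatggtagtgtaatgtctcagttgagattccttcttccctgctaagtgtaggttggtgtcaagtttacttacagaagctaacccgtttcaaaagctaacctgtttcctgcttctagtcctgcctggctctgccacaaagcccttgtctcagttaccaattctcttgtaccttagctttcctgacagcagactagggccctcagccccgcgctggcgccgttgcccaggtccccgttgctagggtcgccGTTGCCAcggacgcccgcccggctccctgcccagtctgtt
Prss46: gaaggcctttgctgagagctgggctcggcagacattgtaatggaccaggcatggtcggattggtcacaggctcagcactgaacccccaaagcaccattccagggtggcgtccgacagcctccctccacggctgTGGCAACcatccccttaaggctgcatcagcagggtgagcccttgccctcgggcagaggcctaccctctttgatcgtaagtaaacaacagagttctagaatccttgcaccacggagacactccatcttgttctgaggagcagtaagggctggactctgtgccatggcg
GTTGCCA stood on either strand in 25 of 162 genes at least 2-fold lower (15.4%) and in 9 of 252 at least 2-fold higher (3.57%), against 4.69% of all genes with a window. Among all genes that fell it stood in 7.15%, and among all that rose in 4.34%. Of axoneme members it stood in 11 of 58 (19%).

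Later structures of the tail and head gave other counts than the axoneme list, though the 2 lists were not tested against each other. Of 43 genes of the outer dense fibres, fibrous sheath and mitochondrial sheath, 12 rose and 2 fell, with a median of 0.067. Of all genes 8.56% rose and 10.6% fell. Ccin, calicin of the sperm head cytoskeleton, read 12.72 and 12.44 in VIII-IX and 12.54 and 12.54 in IX-XI, against 11.38 and 9.67 in XII-I and 11.27 and 9.74 in II-IV, a difference of 2.05 ± 0.39 (SE; adjusted p = 0.0081). Akap3, a scaffold of the fibrous sheath, read 12.81 and 12.70 in VIII-IX and 12.71 and 12.61 in IX-XI, against 12.33 and 11.68 in XII-I and 12.26 and 11.75 in II-IV, a difference of 0.70 ± 0.15 (SE; adjusted p = 0.014). In both, XII-I sample 1 and II-IV sample 1 lay nearest the VIII-XI arrays. Ropn1, a sheath protein that binds such scaffolds, differed by 0.72 ± 0.15 (SE; adjusted p = 0.0099). Odf1, a main outer dense fibre protein, averaged 13.28 in VIII-XI and 13.32 in XII-IV, and Akap4, the most studied sheath scaffold, 12.64 in VIII-XI and 12.69 in XII-IV; neither passed. Fsip1 fell by 1.40 on the log2 scale, with overlapping groups, and did not pass without II-IV sample 2, XII-I sample 2 or the first array of either VIII-XI group (highest adjusted p = 0.056). The count that rose was 5 without II-IV sample 2 or XII-I sample 2 and 6 without the first array of either VIII-XI group, and without any of these 4 arrays the count that fell was 0. Without the whole IX-XI group, or without the whole VIII-IX group, 0 rose.

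Among 33 genes of histone removal and nuclear condensation, 6 rose and 4 fell (30.3% passed, against 19.1% of all genes). Hils1, a linker histone of elongating spermatids, read 12.65 and 12.54 in VIII-IX and 12.57 and 12.43 in IX-XI, against 12.20 and 11.04 in XII-I and 11.68 and 11.12 in II-IV, a difference of 1.04 ± 0.23 (SE; adjusted p = 0.015). H1f6, the testis linker histone, differed by 0.99 ± 0.23 (SE; adjusted p = 0.019) and did not pass without II-IV sample 2 or the first array of either VIII-XI group (highest adjusted p = 0.062). The transition protein genes, active as histones are replaced, did not pass. Tnp1 averaged 12.88 ± 0.20 in VIII-XI and 12.20 ± 1.05 in XII-IV (SD, n = 4 each; adjusted p = 0.35, limma). Tnp2 averaged 13.42 in VIII-XI and 12.92 in XII-IV. The protamines that replace them, Prm1 and Prm2, differed by 0.14 and 0.04. The count that rose was 3 without II-IV sample 2 and 3 without the first array of either VIII-XI group. It was 0 without the IX-XI group and 0 without the VIII-IX group.

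Of 51 genes of round spermatids and the acrosome, 5 rose and 7 fell, against 8.56% and 10.6% of all genes. Without II-IV sample 1, 10 rose, while 2 rose without II-IV sample 2, XII-I sample 2 or the first array of either VIII-XI group and 3 without the second array of either. Without II-IV sample 2, IX-XI sample 1 or XII-I sample 2, 3 fell. Calr3, a testis chaperone of the endoplasmic reticulum, read 11.22 and 11.20 in VIII-IX and 11.42 and 11.31 in IX-XI, against 10.42 and 8.86 in XII-I and 9.26 and 8.71 in II-IV, a difference of 1.98 ± 0.33 (SE; adjusted p = 0.0042). Catsper2, a subunit of the sperm calcium channel, differed by -0.51 ± 0.10 (SE; adjusted p = 0.0091). Spam1, the sperm hyaluronidase, read 7.76 and 6.41 in VIII-IX and 7.46 and 9.35 in IX-XI, against 8.60 and 10.06 in XII-I and 11.32 and 10.27 in II-IV, a difference of -2.32 ± 0.68 (SE; adjusted p = 0.045). The groups overlapped in Spam1, whose IX-XI sample 2 lay above XII-I sample 1, and it passed only without XII-I sample 1 or IX-XI sample 2 among the settings that left out 1 array (highest adjusted p = 0.12).

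X-linked and Y-linked genes of spermatids gave 10 higher and 3 lower of 32. Samt3 read 9.39 and 8.20 in VIII-IX and 9.03 and 8.95 in IX-XI, against 6.21 and 5.89 in XII-I and 8.05 and 6.33 in II-IV, a difference of 2.28 ± 0.45 (SE; adjusted p = 0.0095). Its highest XII-IV array was II-IV sample 1. Cypt1, Cypt2 and Cypt3, cysteine-rich perinuclear theca genes, differed by 1.16, 1.44 and 0.94, and their probe sets may read each other. The count that rose was 6 without II-IV sample 2 or XII-I sample 2. It was 1 without the IX-XI group and 0 without the VIII-IX group. Over all 742 measured X-linked genes, 56 rose (7.55%) and 103 fell (13.9%), against 8.56% and 10.6% of all genes. Without both first samples of XII-IV, 94 of them rose and 101 fell, while of all 19938 genes 2404 rose and 2328 fell in that setting.

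Of 29 genes of the piRNA pathway and germ granules, 8 rose and 6 fell (48.3% passed, against 19.1% of all genes). Piwil1, the PIWI protein of pachytene spermatocytes and round spermatids, read 12.70 and 12.51 in VIII-IX and 12.75 and 12.79 in IX-XI, against 12.02 and 11.36 in XII-I and 12.22 and 11.30 in II-IV, a difference of 0.96 ± 0.21 (SE; adjusted p = 0.012). Tdrd5, a tudor protein of the chromatoid body, differed by 0.98 ± 0.21 (SE; adjusted p = 0.013). Tdrd7, another of the chromatoid body, read 10.84 and 11.08 in VIII-IX and 10.80 and 10.72 in IX-XI, against 11.52 and 11.63 in XII-I and 11.53 and 11.65 in II-IV, a difference of -0.72 ± 0.08 (SE; adjusted p = 0.0012). Tdrd5 and Tdrd7 thus changed in opposite directions. The count that rose was 5 without II-IV sample 2, XII-I sample 2, VIII-IX sample 1 or either IX-XI array, and the count that fell was 2 without II-IV sample 2, IX-XI sample 1 or XII-I sample 2 and 3 without VIII-IX sample 1. Without the whole IX-XI group, or without the whole VIII-IX group, 0 piRNA members rose and 2 fell. Among 55 ubiquitin and proteasome genes of spermatids, 9 rose and 6 fell (27.3% passed). Only 2 fell without IX-XI sample 1, and 3 without II-IV sample 2, XII-I sample 2, VIII-IX sample 1 or the other IX-XI array. Rnf148, a RING finger protein, read 12.20 and 12.07 in VIII-IX and 12.19 and 12.22 in IX-XI, against 11.54 and 9.93 in XII-I and 10.82 and 9.62 in II-IV, a difference of 1.69 ± 0.36 (SE; adjusted p = 0.013). Fbxo39 and Fbxo24, both F-box proteins, differed by 1.90 and 1.67. Of 46 genes of spermatid mRNA storage and spermiogenesis regulators, 7 rose and 4 fell (23.9% passed, near the 19.1% of all genes). Without II-IV sample 1, 11 rose and 7 fell, while 2 rose without II-IV sample 2 or IX-XI sample 1 and 3 without XII-I sample 2 or VIII-IX sample 1.

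**Figure D4:**
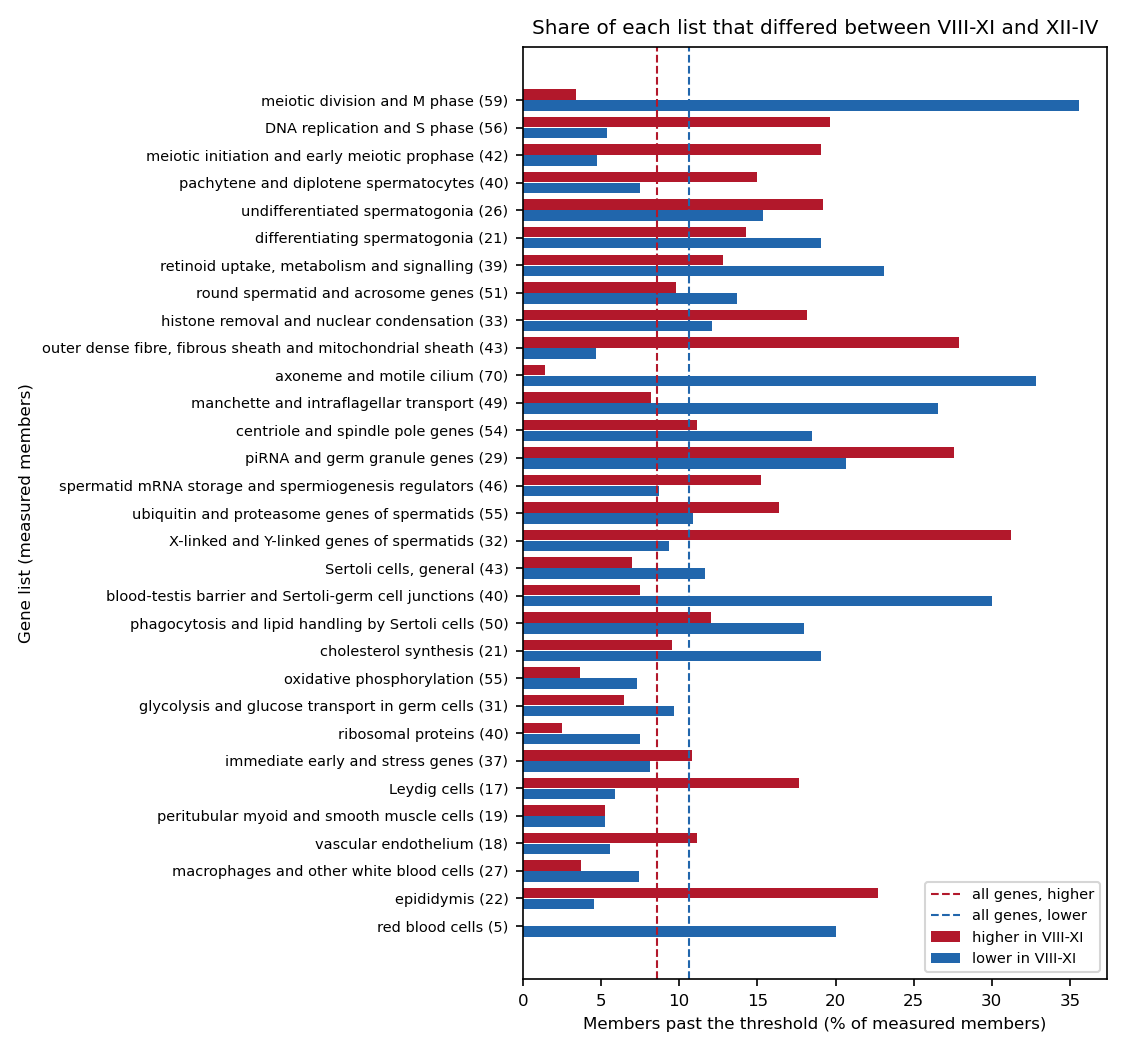
Share of the measured members of 31 gene lists (rows, members in brackets) that passed the test higher (red) or lower (blue) in VIII-XI, in percent (x axis). Dashed lines mark the shares over all genes, 8.56% higher and 10.6% lower. M phase, axoneme and junction genes reach furthest on the lower side.

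Of 43 general Sertoli cell genes, 3 rose and 5 fell (3 without IX-XI sample 1 or XII-I sample 2), against 8.56% and 10.6% of all genes. The members that rose were Drd4 (0.75), Gata1 (0.68) and Shbg (0.64). Those that fell were Espn (-0.77), Fgf2 (-0.67), Kitl (-0.45), Gata4 (-0.31) and Vim (-0.26). Shbg, Kitl and Vim did not pass in every setting that left out 1 array. The markers Sox9 (9.69 in VIII-XI, 9.70 in XII-IV) and Cldn11 (11.10 in both) were level. Of 40 genes of the blood-testis barrier and of junctions between Sertoli and germ cells, 3 rose and 12 fell, with a median of -0.052. Without both first samples of XII-IV, 4 rose and 10 fell. The count that fell ran from 8 to 14 over the settings that left out 1 array. It was 2 without the IX-XI group and 6 without the VIII-IX group. Jup, plakoglobin of cell junctions, read 12.17 and 11.63 in VIII-IX and 12.01 and 12.19 in IX-XI, against 10.42 and 9.13 in XII-I and 10.08 and 9.15 in II-IV, a difference of 2.30 ± 0.29 (SE; adjusted p = 0.0017). Its VIII-XI arrays all lay above 11, and XII-I sample 1 and II-IV sample 1 were the higher XII-IV arrays. Cldn13, a claudin, differed by 1.18 ± 0.18 (SE; adjusted p = 0.003). Among those that fell, Espn, the actin bundler of the ectoplasmic specialization, read 10.03 and 10.07 in VIII-IX and 9.77 and 9.44 in IX-XI, against 10.56 and 10.74 in XII-I and 10.47 and 10.63 in II-IV, a difference of -0.77 ± 0.14 (SE; adjusted p = 0.006). Itga6, an integrin chain of laminin receptors at the same junction, read 8.45 and 8.65 in VIII-IX and 8.41 and 8.14 in IX-XI, against 9.19 and 9.23 in XII-I and 9.37 and 9.45 in II-IV, a difference of -0.90 ± 0.11 (SE; adjusted p = 0.0014). The tight junction scaffold Tjp1 differed by -0.45 ± 0.08 (SE; adjusted p = 0.007), and the adhesion protein Jam3 by -0.43 ± 0.09 (SE; adjusted p = 0.011).

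Of 50 genes of phagocytosis and lipid handling, 6 rose and 9 fell (30% passed, against 19.1% of all genes). Gas6, the ligand that bridges dying cells and residual bodies to TAM receptors, read 9.88 and 10.02 in VIII-IX and 9.73 and 9.52 in IX-XI, against 10.82 and 10.96 in XII-I and 10.90 and 11.08 in II-IV, a difference of -1.15 ± 0.11 (SE; adjusted p = 0.00074). Its receptor Mertk averaged 8.72 in VIII-XI and 8.96 in XII-IV and did not pass. Adgrb1, another receptor for dying cells, read 8.85 and 8.64 in VIII-IX and 8.76 and 8.79 in IX-XI, against 7.99 and 7.79 in XII-I and 7.76 and 7.91 in II-IV, a difference of 0.90 ± 0.08 (SE; adjusted p = 0.00058). Plin3, a lipid droplet coat protein, read 10.35 and 10.01 in VIII-IX and 10.29 and 10.32 in IX-XI, against 9.47 and 9.34 in XII-I and 9.37 and 9.37 in II-IV, a difference of 0.85 ± 0.09 (SE; adjusted p = 0.00078). Lamp2, of lysosomal membranes, differed by 0.67, and Scarb1, the receptor for high-density lipoprotein that also binds residual bodies, by 0.58. Abca1, which exports cholesterol, fell by 0.46 on the log2 scale. The count that fell was 5 without IX-XI sample 1 or XII-I sample 2.

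Cholesterol synthesis genes passed in both directions. Of 21 genes, 2 rose and 4 fell (28.6% passed, against 19.1% of all genes). Without XII-I sample 1, 4 rose and 2 fell, and 2 fell without XII-I sample 2, IX-XI sample 2 or VIII-IX sample 1. Cyp51, which demethylates lanosterol, read 11.01 and 10.59 in VIII-IX and 10.99 and 10.96 in IX-XI, against 9.14 and 8.55 in XII-I and 10.09 and 8.70 in II-IV, a difference of 1.77 ± 0.30 (SE; adjusted p = 0.0049), and II-IV sample 1 was the highest XII-IV array. Fdps, which makes farnesyl diphosphate, read 11.45 and 11.29 in VIII-IX and 11.46 and 11.49 in IX-XI, against 10.70 and 10.39 in XII-I and 10.48 and 10.33 in II-IV, a difference of 0.94 ± 0.09 (SE; adjusted p = 0.00075). Sqle, which opens the sterol branch, read 10.85 and 10.61 in VIII-IX and 10.86 and 11.04 in IX-XI, against 11.29 and 11.52 in XII-I and 11.54 and 11.44 in II-IV, a difference of -0.61 ± 0.10 (SE; adjusted p = 0.004). The regulator Srebf2 fell by 0.43 on the log2 scale.

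Other cell types were described by their whole lists. The share that passed was 23.5% of Leydig, 10.5% of peritubular and 11.1% of macrophage genes. It was 16.7% of endothelial and 27.3% of epididymal genes, against 19.1% of all genes. Of 17 Leydig cell genes, 3 rose and 1 fell, but only 5 had a positive difference and the median was -0.154. Those that rose were Cyp1b1, Nr0b1 (1.09) and Scarb1 (0.58). Cyp1b1, a cytochrome P450, read 9.53 and 8.80 in VIII-IX and 9.36 and 9.41 in IX-XI, against 7.77 and 7.41 in XII-I and 7.79 and 7.41 in II-IV, a difference of 1.68 ± 0.17 (SE; adjusted p = 0.00075). The steroidogenic genes Star and Cyp11a1 averaged 9.28 and 10.70 in VIII-XI, against 9.90 and 11.19 in XII-IV, and did not pass. Log2 intensities summed over the 17 Leydig genes ran from 161.1 to 168.7 on the VIII-XI arrays and from 163.9 to 170.0 on the XII-IV arrays, so the periods overlapped. Peritubular genes gave 1 higher and 1 lower of 19, and macrophage genes 1 higher and 2 lower of 27. The macrophage genes were Fcgr3 (0.45) on the higher side, and Adgre1 (-0.67) and Mrc1 (-0.56) on the lower. Settings that left out 1 array gave 0 to 2 higher and 0 to 1 lower peritubular genes, and 0 to 3 higher macrophage genes, with the 3 found without XII-I sample 1. The Leydig gene that fell became 2 without IX-XI sample 1 and 0 without XII-I sample 2. Endothelial genes gave 2 higher and 1 lower of 18. Sox17, an endothelial factor that is also transcribed in germ cells, read 8.03 and 8.31 in VIII-IX and 7.85 and 7.73 in IX-XI, against 9.53 and 9.05 in XII-I and 8.32 and 9.00 in II-IV, which was 1.99-fold lower in VIII-XI (adjusted p = 0.019, limma) and did not pass without either IX-XI array or the second array of either XII-IV group (highest adjusted p = 0.061), while the endothelial markers Pecam1 (0.06) and Cdh5 (0.03) did not pass. Of 22 epididymal genes, 5 rose and 1 fell. The 5 that rose were whey acidic protein and beta-defensin genes such as Wfdc9 and Defb30, at 0.84 and 0.79, while the defining markers Lcn5, Lcn8, Adam7 and Gpx5 differed by -0.09 to 0.04. Whether cells of these types took part in any difference was not tested.

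The share past the threshold was 10% among ribosomal protein genes, 10.9% among genes of oxidative phosphorylation, 16.1% among glycolytic genes and 18.9% among immediate early and stress genes, against 19.1% of all genes. Of 40 ribosomal protein genes, 1 rose and 3 fell, and of 55 genes of oxidative phosphorylation, 2 rose and 4 fell. Glycolytic genes gave 2 higher and 3 lower of 31. Among immediate early and stress genes, 4 of 37 rose and 3 fell, with Dusp1 at 0.96, Hspa1a at 0.56 and Hspd1 at -0.65. Without XII-I sample 1, 5 oxidative phosphorylation, 4 glycolytic and 7 immediate early or stress genes rose, while without II-IV sample 2, IX-XI sample 1 or XII-I sample 2 the counts were 1, 0 and 2. The 3 ribosomal protein genes that fell became 0 without II-IV sample 2 or IX-XI sample 1, and 6 immediate early or stress genes fell without II-IV sample 1.

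The arrays of IV-VII, which took no part in the test, placed most of these genes between the periods. Of the 1706 higher genes, the IV-VII mean lay between the period means for 1280, above VIII-XI for 116 and below XII-IV for 310. Of the 2112 lower genes it lay between for 1510, below VIII-XI for 264 and above XII-IV for 338. Plk1 averaged 11.75 in IV-VI and 11.04 in VII, and Dnah10 10.35 in IV-VI and 9.65 in VII. By VII, Plk1 lay above its VIII-XI mean of 10.73 and Dnah10 below its VIII-XI mean of 9.86. Stra8 averaged 7.09 in IV-VI and 7.81 in VII, and Jup 10.61 in IV-VI and 11.64 in VII. Among the 6 group means, the highest was IX-XI for 847 of the higher genes and VIII-IX for 689. For the lower genes it was XII-I for 981 and II-IV for 739, with IV-VI for 280 and VII for 112. These are descriptions, since the test itself fixed the order of the 2 periods.

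Within a period, the stage groups were compared in a fit other than that of the main test. In limma's fit of 6 group means to all 12 arrays, 0 genes passed between IX-XI and VIII-IX, with 925 at an unadjusted p under 0.05. Between II-IV and XII-I, 0 passed, with 1980 at an unadjusted p under 0.05. Each contrast rests on 2 arrays a group. The counts were 7 without VIII-IX sample 2 and 1 without XII-I sample 1. For each gene all 6 groups share 1 estimate of the spread, so VII enters it. The 2 VII arrays correlated at 0.99 across genes, but some somatic genes were far apart on them. Lyz2 read 9.25 on VII sample 1 and 11.07 on VII sample 2, and Cyp11a1 11.18 and 12.30. What this did to the counts, or to the VII and IV-VII means, was not tested.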

How the data were processed

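RNA of 12 testis samples was hybridised to Affymetrix Mouse Gene ST arrays, from 100 ng of RNA and 3.75 ug of amplified cDNA per the labels. The authors deposited 1 linear intensity per probe set, made with RMA per the submitters' processing notes, with no version in the sources used here. RMA makes array distributions alike (medians 296.9 to 309.1), so a change in total RNA is not seen. From the deposited values, log2 was computed here. Of 28853 probe sets, 21789 had 1 symbol in the array annotation, 1621 had several and 5443 had none. Only the first kind was used, and for 999 genes with more than 1 probe set the brightest was kept.

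The 4 arrays of VIII-XI and the 4 of XII-IV were compared with lmFit and eBayes (limma 3.58.1, R 4.3.3), with Benjamini-Hochberg adjustment over 19938 genes at a threshold of 0.05. The script was tested on simulated data. Arrays limit the precision by their number. Named genes are the 15 with the largest difference each way among non-overlapping genes that passed, the 5 with the widest gap each way, and up to 4 members per list past the threshold (8 where over 10 passed). Symbols of predicted genes, of odorant, vomeronasal and trace amine receptors and of small RNAs were skipped. A total of 31 lists held 1303 entries, of which 110 were not measured. Some genes were entered in several lists and count in each. Members, lists and tests were chosen with earlier results of these data known. Promoter windows are RefSeq's (GRCm38.p6), with 15614 measured genes matched by symbol. The array annotation's build was not found in the sources used here. Samples of the same number deviated together in some pairs of groups and not in others (correlations across genes -0.354 to 0.541). The highest were 0.541 for II-IV with VIII-IX and 0.526 for XII-I with IX-XI, both between the compared periods. The numbers share no stated source, so they were not treated as pairs in the main test.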

Additional observations from a re-analysis of the deposited data

Results flagged for a closer look

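Among the 30 genes with the largest differences, each period's 4 arrays were checked for a single array far from the other 3 (a gap, as a share of the whole range, over Dixon's critical value). Of 60 checks, 7 stood out. Chance flags about 1 in 20 among independent sets of values. The checks share the same arrays and the genes were chosen for their differences, so the number cannot be set against that rate.

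XII-I sample 1 was the array in 4 of the 7. Trim42 read 9.45 there, against 7.22 to 7.56 on the other XII-IV arrays, and so lay toward VIII-XI. Tpte read 9.23 against 10.40 to 10.64, Iqca 9.54 against 10.58 to 10.76 and Ssxb2 7.34 against 8.39 to 8.51, all again on the VIII-XI side. II-IV sample 1 read 7.84 for Nutm2, against 8.87 to 8.97. In VIII-XI, IX-XI sample 2 read 7.82 for Scp2, against 7.18 to 7.29, and 8.93 for Zdhhc11, against 7.75 to 7.84. All 7 genes passed the limma test in each setting that left out 1 array.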

How the results depend on the processing

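No called difference of a named gene changed sign under the alternatives run, but the excess of lower over higher genes turned round in 3: 1820 higher and 1805 lower with centring on the 75th percentile, 2404 and 2328 without both first samples of XII-IV, and 1547 and 1474 without XII-I. With 3818 genes in all, 1706 higher and 2112 lower, settings that left out 1 array gave 2246 to 4480 in all, 969 to 2195 higher and 1272 to 2346 lower. Array weights gave 8627 (4150 higher, 4477 lower), with an estimate that stopped before its tolerance. Without II-IV 2484 passed (1073 higher), without VIII-IX 1909 (815 higher, 1094 lower) and without IX-XI 896 (350 higher, 546 lower), each on fewer arrays. At least 2-fold differences left 522. Other settings stayed within 1.5 times: 3021 without XII-I, 4732 without both first samples of XII-IV, 4410 with 6 group means, 3737 with 4 group means, 3726 with stage group as a random block, 4240 with quantile normalization repeated, 3625 with centring on the 75th percentile, 3678 without the dimmest 30%, 3803 with the mean of probe sets and 3719 with a trended, robust prior. With the replicate block 3986 passed; the numbers share no stated source. Within periods, settings that left out 1 array gave 0 to 7 genes for IX-XI against VIII-IX and 0 to 1 for II-IV against XII-I. Of 188 genes that the naming rule gave, 62 passed in every alternative, and the most were lost without IX-XI (115). The settings that left out a stage group all used the same number of arrays. The causes of the differences between settings were not tested.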
